A study of Mus musculus with 22 samples.

Results

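The 10 genes described here encode receptors for lipopolysaccharide (LPS), bacterial lipoproteins and nucleic acids, the related receptor CD180, and partner proteins. They are Tlr4, Ly96, Cd14, Cd180, Ly86, Tlr2, Tlr7, Tlr9, Myd88 and Unc93b1. They were listed by name as members of the pathway, with earlier results of these data known, and all 10 were found among the 24911 genes of each file. The study measured poly(A) RNA in 22 mouse libraries, and no group has more than 1 library. The B-cell libraries were splenic B cells with no stimulus named, 6 activated B cultures (aBCD180, aCD40+IL4, LPS alone, and LPS together with a-d-dextran, IL21 or IL4) and the CH12 B lymphoma line, represented by the single clone bc5. Of the other libraries, 9 were CD4 T cells: CD4+ T cells, follicular helper cells (Tfh), activated non-Tfh cells sorted as CD44+ CXCR5- PD1- CD25-, and follicular regulatory cells (Tfr) sorted as CD44+ CXCR5+ PD1+ CD25+, each once with and once without the label MUT, and a ConA-activated CD4+ culture. The rest were back skin, basophils and 3 brain regions (medulla oblongata, putamen and sensorimotor cortex).

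The labels state that mature B cells came from C57BL/6J spleen by negative selection. They give no strain for the other samples, no age, no dose and no culture time. What MUT, a-d-dextran and aBCD180 stand for is not spelled out either, and these names are used as labels. Where a comparison below has several libraries on a side, those libraries differ in stimulus or sort and serve as the spread, so its p-values do not measure variation between animals.

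LPS is recognised on the cell surface by TLR4 bound to MD-2, the product of Ly96, after CD14 has handed it over. B cells carry a second, related pair, CD180 (also called RP105) bound to MD-1, the product of Ly86, which lacks the intracellular signalling domain of the Toll-like receptors and modulates responses to LPS. TLR7 senses RNA and TLR9 senses DNA in endosomes, to which UNC93B1 escorts them, and MYD88 is the adaptor through which TLR2, TLR4, TLR7 and TLR9 signal.

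Windows of 5 of the 10 genes were taken from the RefSeq promoter table (GRCm38.p6), with Cd14 left out of that search. Of these genes 4 are shown because they cover both genes of the CD180 pair, the DNA receptor and the shared adaptor. Each line gives the 250 bases that end just before the annotated start of the gene, on the gene's strand, and capitals mark matches to the motifs searched. On GRCm38, the assembly also called mm10, RefSeq places Cd180 at chr13:102693547-102706631, Ly86 at chr13:37345345-37419036, Tlr9 at chr9:106222598-106226876 and Myd88 at chr9:119335934-119340018. Tlr4 lies at chr4:66827551-66846581, Ly96 at chr1:16688456-16709605, Tlr2 at chr3:83836272-83841824, Tlr7 at chrX:167303380-167330574 and Unc93b1 at chr19:3935158-3949340. The windows, which lie outside these gene spans, are chr13:102693297-102693546 (plus strand) for Cd180, chr13:37345095-37345344 (plus strand) for Ly86, chr9:106222348-106222597 (plus strand) for Tlr9 and chr9:119340019-119340268 (minus strand) for Myd88.
Cd180: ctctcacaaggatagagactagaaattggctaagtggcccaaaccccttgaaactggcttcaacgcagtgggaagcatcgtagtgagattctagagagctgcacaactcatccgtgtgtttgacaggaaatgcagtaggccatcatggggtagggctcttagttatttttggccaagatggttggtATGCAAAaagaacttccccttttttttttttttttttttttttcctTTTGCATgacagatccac
Ly86: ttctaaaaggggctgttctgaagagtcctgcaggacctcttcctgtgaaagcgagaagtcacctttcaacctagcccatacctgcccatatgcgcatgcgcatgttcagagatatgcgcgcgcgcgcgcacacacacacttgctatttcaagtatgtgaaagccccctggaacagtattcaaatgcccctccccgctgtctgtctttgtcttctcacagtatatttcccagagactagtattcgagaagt
Tlr9: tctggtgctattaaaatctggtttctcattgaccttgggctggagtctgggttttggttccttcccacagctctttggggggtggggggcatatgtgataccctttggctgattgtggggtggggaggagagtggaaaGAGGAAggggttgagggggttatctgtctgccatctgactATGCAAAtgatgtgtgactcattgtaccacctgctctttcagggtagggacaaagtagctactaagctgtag
Myd88: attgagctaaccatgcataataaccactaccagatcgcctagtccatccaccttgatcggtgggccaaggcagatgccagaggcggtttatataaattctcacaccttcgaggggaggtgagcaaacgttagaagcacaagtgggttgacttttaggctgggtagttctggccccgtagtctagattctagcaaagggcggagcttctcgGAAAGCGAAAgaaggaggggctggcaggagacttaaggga
The motifs searched on both strands were the octamer core ATGCAAA, the PU.1 and SpiB core GAGGAA, the NF-kB form (GGGA and CC with any 4 bases between them) and the interferon response form (GAAA and GAAA with any 2 bases between them). Among 32851 windows of the same length the octamer core was found in 4.12%, GAGGAA in 23.3%, the NF-kB form in 17.6% and the interferon response form in 2.98%. In the Cd180 window the octamer core occurred at 64 to 58 bases before the start and again, on the other strand, at 18 to 12 bases. The Tlr9 window held GAGGAA at 112 to 107 bases and the octamer core at 72 to 66 bases before the start. The Myd88 window held the interferon response form at 40 to 31 bases, and the Ly86 window held none of the 4 motifs. The matches are descriptions of these letters and say nothing of whether a factor binds there.

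Levels are given in TPM, a transcript's share of all transcripts in its library, which is scaled per gene length and so allows different genes to be compared. In splenic B cells the order was Unc93b1 (740.3 TPM), Ly86 (480.1), Cd180 (421), Tlr9 (121), Tlr7 (62.4), Myd88 (53.7), Ly96 (17.5), Tlr4 (16.1), Tlr2 (13.1) and Cd14 (5.27). Unc93b1, Ly86 and Cd180 thus stood at percentiles 99.0, 98.5 and 98.2 of the genes detected in that library, while Tlr4 was at percentile 52.2 and Cd14 at 40.3. The counting intervals (95%, Poisson) of neighbours in this order overlapped only for Ly96 (15.9 to 19.2 TPM) and Tlr4 (15.7 to 16.5 TPM). The transcripts of the CD180 pair exceeded those of the TLR4 pair: Cd180 was 26.2 times Tlr4, and Ly86 was 27.5 times Ly96.

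**Figure D1:**
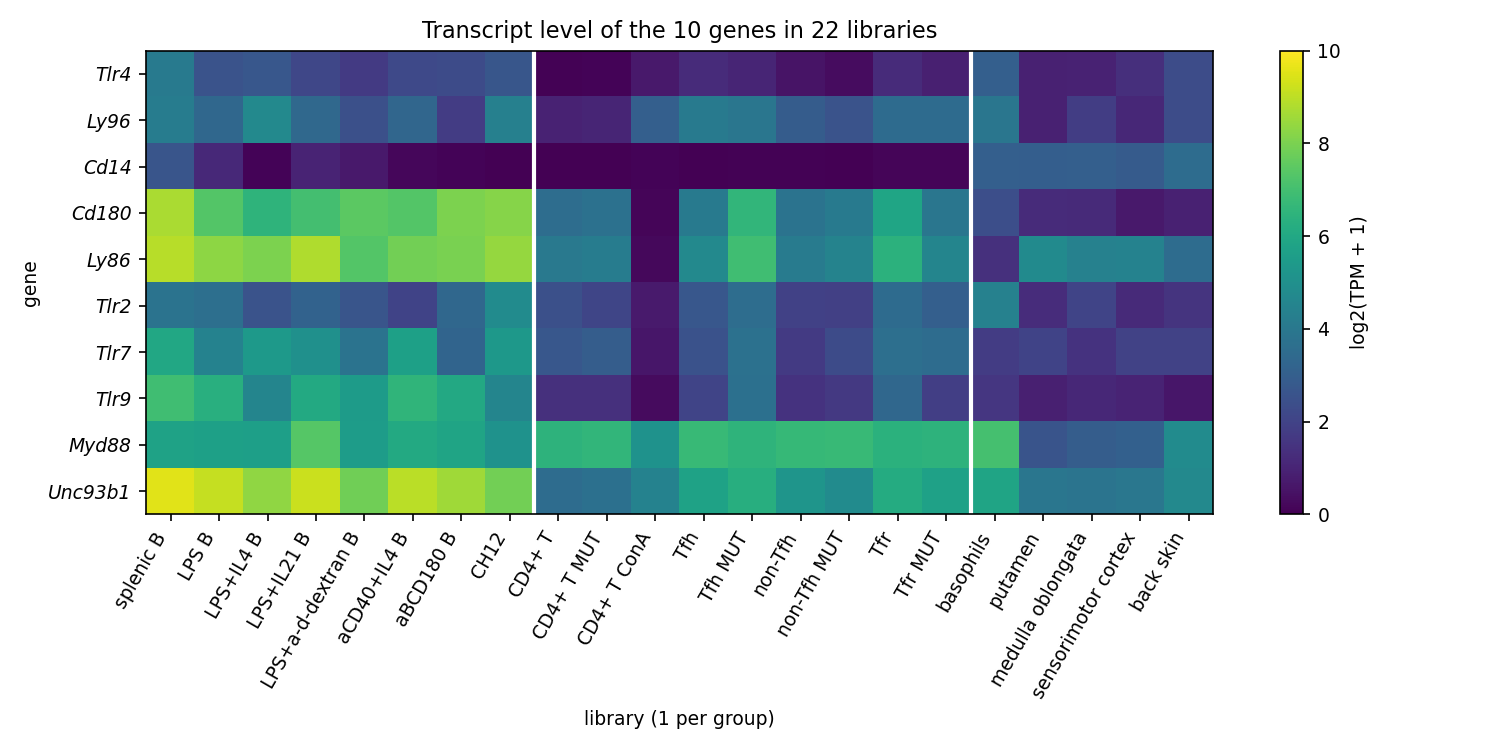
Level of each gene (rows) in each of the 22 libraries (columns) as log2(TPM + 1), shown by colour. Cd180, Ly86, Tlr9 and Unc93b1 are bright in the 8 B-lineage libraries on the left, Myd88 is bright in B, T and basophil libraries, and Cd14 is at 1.21 TPM or less in all lymphocyte libraries except splenic B.

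The libraries held 30.8 to 147.9 M expected counts (median 46.2 M). Length minus effective length in the files was 49 in 4 libraries (splenic B, LPS+IL4 B, ConA and CH12) and 48.56 or 48.57 in the other 18. The defining markers of each labelled cell type were present: all 8 B-cell markers were above 1 TPM in every B-lineage library, all 8 T-cell markers in every CD4 T library and all 8 basophil markers in the basophil library. Other cell types' markers were present too. Splenic B had all 10 monocyte and macrophage markers above 1 TPM, the basophil library had 7 of 8 neutrophil markers above 1 TPM, and 8 of the 9 T libraries had 104 to 805 TPM of summed B-cell markers. Ddx3y, a Y-linked gene, was at 27.3 to 103.6 TPM in 7 libraries (splenic B, LPS+IL21 B, ConA, basophils, back skin, medulla oblongata and putamen) and at most 0.11 TPM in the other 15.

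The first comparison asked which of the genes set B cells apart from CD4 T cells (7 primary B against 9 T libraries). Of the 9 genes tested, 6 were higher in B cells and 0 were lower, where 23.9% of the 12437 genes tested were called higher and 22.5% lower, 46.4% in all (adjusted p under 0.05, edgeR quasi-likelihood test). Cd14 was removed by the filter on low counts. The median log2 difference was 3.08 over the 9 genes and 0.01 over all genes tested. In bulk samples, fewer cells of a type and less RNA per cell cannot be told apart.

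Tlr9 and its escort Unc93b1 had the largest differences of the 9 genes. Tlr9 ran from 22.6 TPM (LPS+IL4) over a median of 65.8 to 121 (splenic) in the B libraries and from 0.21 (ConA) over 2.12 to 12.1 (Tfh MUT) in the T libraries. The ranges did not overlap, and the means were 70.0 ± 32.1 TPM (SD, n = 7) and 3.80 ± 4.0 (n = 9). The fitted log2 difference was 4.36 ± 0.58 (SE, adjusted p = 2.96e-05). Unc93b1 was at 229 to 740.3 TPM in B cells (median 504) and at 10.6 to 76.2 in T cells (median 35.7). It differed by 3.71 ± 0.36 (adjusted p = 1.67e-06), again with no overlap.

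Tlr7, which uses the same escort, ran from 8.46 TPM (aBCD180) over a median of 31.5 to 62.4 (splenic) in the B libraries. In T libraries it lay between 0.53 (ConA) and 12.2 TPM (Tfh MUT), with a median of 5.55. The fitted difference was 2.45 ± 0.49 (adjusted p = 0.00100), although the aBCD180 culture fell below the T libraries Tfh MUT (12.2), Tfr (11.7) and Tfr MUT (10.46).

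Both genes of the CD180 pair were higher in B cells. Cd180 was at 91.0 TPM or more in all 7 B libraries (median 159), and in T libraries it spanned 0.09 (ConA) to 93.7 (Tfh MUT) with a median of 14.3. Its log2 difference was 3.08 ± 0.71 (adjusted p = 0.00257). The ranges met at one point, where Tfh MUT (93.7 TPM) exceeded LPS+IL4 B (91.0). Ly86 was at 158 to 480.1 TPM in B libraries (median 263) and at 0.17 to 122 in T libraries (median 21.04), without overlap, and differed by 3.28 ± 0.68 (adjusted p = 0.00125).

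The TLR4 complex was split. Tlr4 itself was at 2.27 to 16.1 TPM in B libraries (median 3.91) and at 0.04 to 1.37 in T libraries (median 0.61), a log2 difference of 3.18 ± 0.60 (adjusted p = 0.000637) with no overlap. Ly96, which encodes its partner MD-2, was at 2.40 to 24.9 TPM in B libraries (median 9.07) and at 0.92 to 15.8 in T libraries (median 7.08). The ranges overlapped, and the difference of 0.61 ± 0.55 did not pass the test (adjusted p = 0.380). Cd14 was at most 0.11 TPM in the 9 T libraries and between 0.08 and 5.27 in the 7 B libraries.

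Tlr2 and Myd88 did not pass the test either. Tlr2, the receptor for bacterial lipoproteins, had means of 7.86 ± 3.72 TPM in B and 5.30 ± 3.54 in T cells (log2 difference 0.70 ± 0.41, adjusted p = 0.173). Tlr2 passed the test at 1.11 when Tfh MUT and Tfr, the T libraries richest in B-cell markers, were left out. Myd88 was at 69.1 ± 42.5 TPM in B cells and 87.4 ± 21.8 in T cells, a difference of -0.22 ± 0.28 (adjusted p = 0.552). Myd88 depended on the LPS+IL21 culture, its highest value at 164 TPM: without that library it was lower in B cells by the test, at -0.65.

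The rest of the pathway was read from lists of other genes, beside the shares of all genes tested (23.9% higher and 22.5% lower). Of 4 other Toll-like receptors that could be tested (8 listed), Tlr3 (2.35 ± 0.93, adjusted p = 0.0484) and Tlr6 (0.82 ± 0.29, adjusted p = 0.0289) were higher in B cells. For Tlr3 only splenic B stood above the T libraries, at 11.9 TPM. The activated cultures had 0.05 to 0.94 TPM, inside the 0.02 to 1.49 TPM of the T libraries. Of 7 tested genes for LPS delivery and receptor chaperones, 6 were higher, led by the scavenger receptor Cd36 (4.40 ± 0.92), the lysosomal protease Lgmn (2.25 ± 0.43) and the endosomal transporter Slc15a4 (1.68 ± 0.23). Among 20 adaptors and kinases 10 were higher and 2 lower. The kinases Syk (4.90 ± 0.76), Lyn (4.58 ± 0.72) and Btk (4.08 ± 0.57) led the higher genes, and Ikbke (-2.92 ± 0.41) and Tab2 (-0.62 ± 0.17) were the lower ones. Syk, Lyn and Btk also act downstream of the B-cell antigen receptor.

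Genes listed as brakes of the pathway went the other way more often, with 2 higher and 7 lower of 14. The list was set by name, and whether each gene acts as a brake in these cells was not tested. The decoy kinase Irak3 was higher (2.65 ± 0.45), as was Zc3h12a (0.94 ± 0.23). The phosphatase Dusp1 (-3.66 ± 0.78), the receptor-like inhibitor Sigirr (-2.09 ± 0.30) and the ubiquitin ligase Peli1 (-1.89 ± 0.28) were lower in B cells. Of 12 transcription factors 3 were higher and 3 lower, near the shares of all genes tested. Irf8 (3.12 ± 0.49), Irf5 (2.24 ± 0.41) and Rel (1.46 ± 0.37) were higher and Irf7 (-2.58 ± 0.68), Irf3 (-0.58 ± 0.20) and Rela (-0.43 ± 0.15) lower. Of 19 tested LPS response genes 1 was called in each direction, below those shares. Cd83 was higher (2.60 ± 0.73) and the homing receptor Ccr7 lower (-2.01 ± 0.73).

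**Figure D2:**
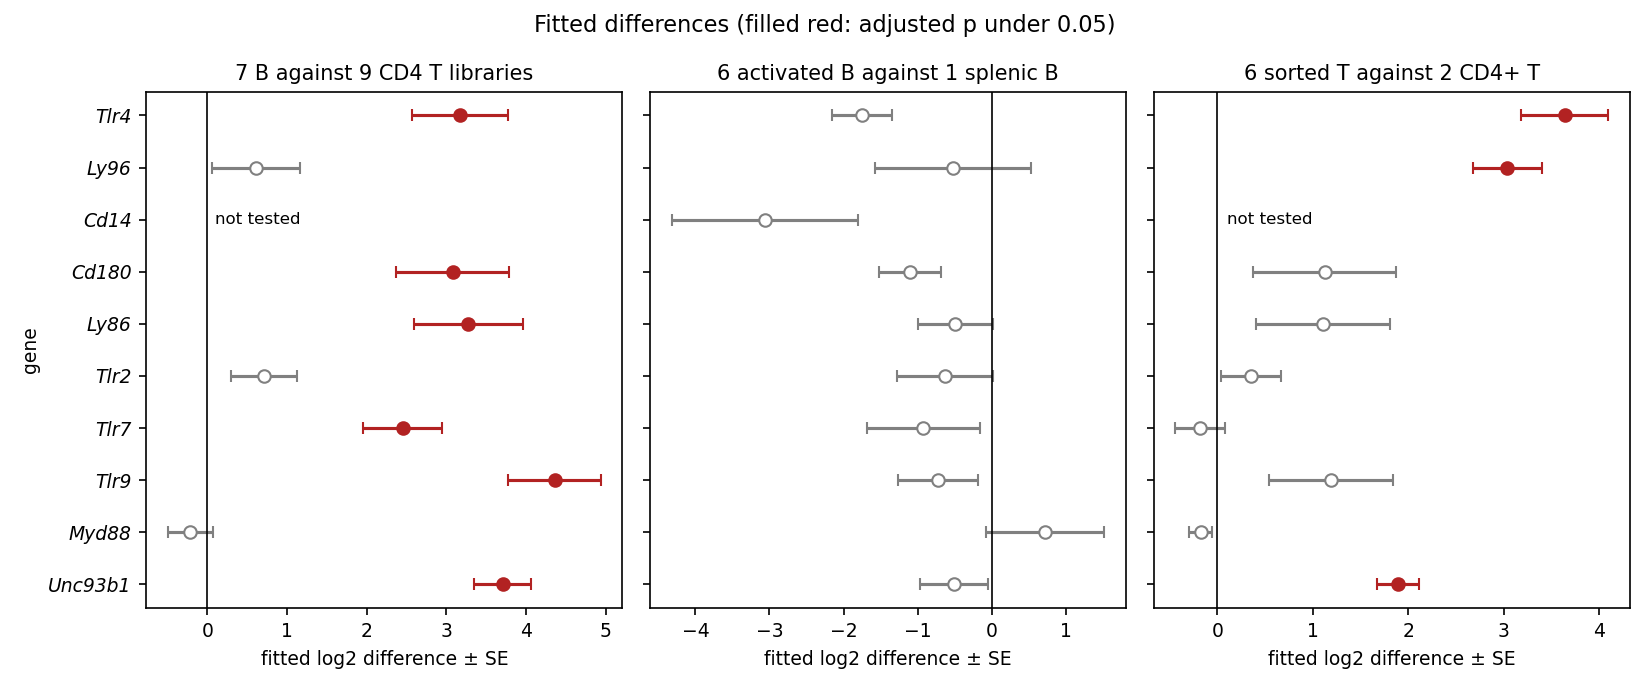
Fitted log2 differences (points) with standard errors (bars) for each gene in 3 comparisons, filled red where the adjusted p was under 0.05. In the left panel 6 genes are filled, in the middle panel 0 and in the right panel Tlr4, Ly96 and Unc93b1.

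The second comparison set the activated cultures against the splenic B cells, for which no stimulus is named. With 1 splenic library the fitted test called 0 of the 10 genes. It called 76 of 13714 genes (0.554%), 3 higher (0.0219%) and 73 lower (0.532%) in the cultures. With DESeq2 the log2 difference of Tlr4 was -1.74, and with limma that of Cd14 was -2.11. Each culture was therefore also set against splenic B by a rule of size, a change of at least 1 in log2(TPM + 1) with at least 5 TPM on the higher side, which carries no p-value and, through the added 1, understates changes of low genes.

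By that rule 32 of the 60 pairs of gene and culture met the threshold, 31 of them lower in the culture. The LPS culture had 4 genes lower (16.3% of 9742 genes were lower by the rule), LPS+IL4 had 6 (24.6% of 9883) and LPS+IL21 had 3 (24.9% of 9689). LPS+a-d-dextran had 9 (29.2% of 9754), aCD40+IL4 had 5 (11.3% of 9709) and aBCD180 had 4 (23.1% of 9807). The single higher pair was Myd88 in LPS+IL21, where 10.0% of genes were higher. Over all genes the median log2 change was itself below 0, from -0.09 (aCD40+IL4) to -0.35 (LPS+IL21). On TMM-scaled counts that median was 0.13 lower than on the TPM scale in LPS and 0.26 higher in LPS+IL4. The share of lower among all genes meeting the rule went from 57.1% to 67.5% in LPS and from 65.9% to 51.1% in LPS+IL4. On that scale 23 of the 60 pairs met the rule. The pairs lost were Cd14 in every culture, Ly96 in LPS+a-d-dextran and aBCD180, and Unc93b1 in LPS+IL4. The floor of 5 was kept there, although TMM-scaled counts are not divided by gene length. Cd14 and Ly96 had 404 and 458 of 105.5 M counts in splenic B and fell under that floor. Their loss therefore does not show a smaller change.

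The TLR4 complex had its highest Tlr4 and Cd14 levels in splenic B. Tlr4 was at 16.1 TPM in splenic B, 4.93 in LPS, 5.60 in LPS+IL4, 3.33 in LPS+IL21, 2.27 in LPS+a-d-dextran, 3.67 in aCD40+IL4 and 3.91 in aBCD180. It met the rule in all 6 cultures, with splenic B 2.87 to 7.08 times as high, and cultures with and without LPS were interleaved. The fitted difference was -1.75 ± 0.40 (adjusted p = 0.102).

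Ly96 did not follow Tlr4. It was at 17.5 TPM in splenic B and at 24.9 in LPS+IL4, 9.45 in LPS+IL21, 9.07 in LPS, 8.83 in aCD40+IL4, 4.50 in LPS+a-d-dextran and 2.40 in aBCD180. LPS+IL4 was above splenic B (splenic B at 0.70 times its level, counting interval 0.62 to 0.79), while aBCD180 was 7.28-fold lower (5.06 to 10.48). The lowest value rests on 31 counts. Splenic B and LPS+IL4 share the length offset of 49, while the other cultures are at 48.57. The part of this difference in the contrasts with splenic B was not tested.

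Cd14 was at 5.27 TPM in splenic B, 1.21 in LPS, 0.99 in LPS+IL21, 0.61 in LPS+a-d-dextran, 0.14 in aCD40+IL4 and 0.08 in both LPS+IL4 and aBCD180. Both cultures with IL4 and the aBCD180 culture had only 3 to 6 counts, against 404 in splenic B. The summed monocyte and macrophage markers moved the same way. All 10 were above 1 TPM in splenic B, with a sum of 411 TPM. In the cultures 2 to 5 of 10 were, with sums of 14.2 to 53.1 TPM. Of these markers Lyz2 was at 97.7 and Csf1r at 60.5 TPM in splenic B. Not every marker fell: Itgam was at 4.19 TPM in splenic B, 4.84 in LPS and 20.6 in LPS+IL21. Adgre1 was at 28.6 TPM in splenic B and 18.5 in LPS+IL4. Dendritic cell markers were above 1 TPM for 7 of 8 in splenic B (sum 50.5 TPM) and for 1 to 4 in the cultures (10.0 to 95.2 TPM). Their part in the differences of Cd14, Tlr4 and the other genes was not tested.

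**Figure D3:**
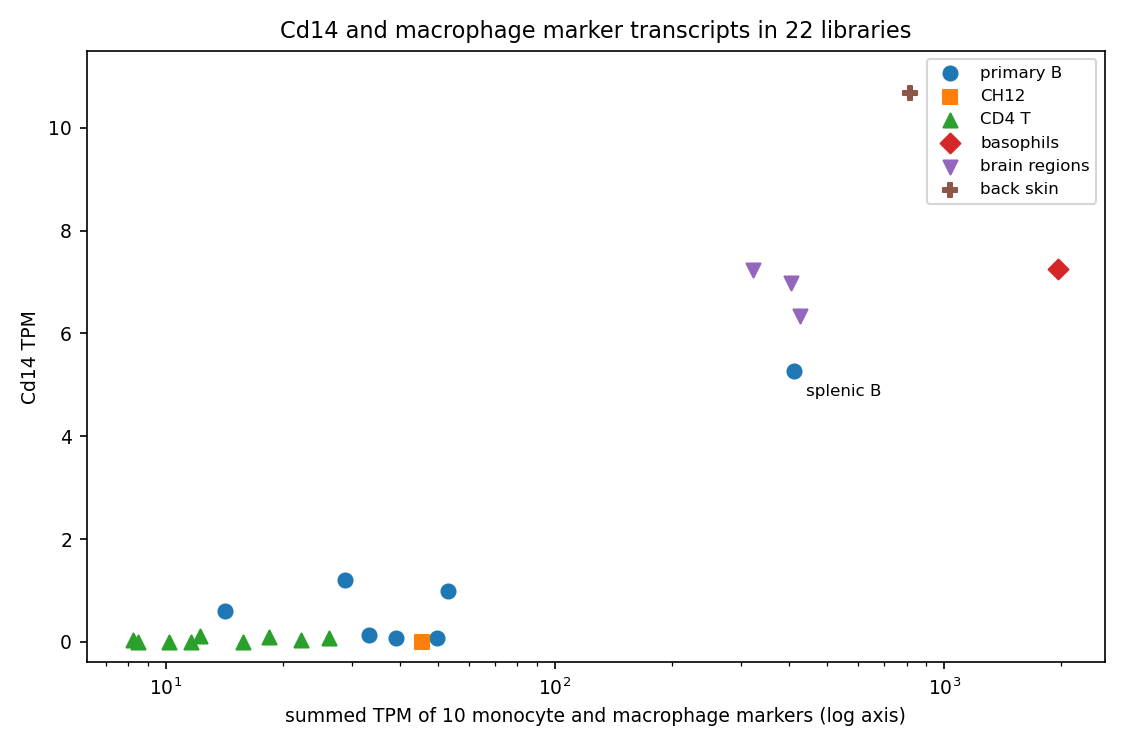
Cd14 (vertical axis, TPM) against the summed TPM of 10 monocyte and macrophage markers (horizontal log axis) in the 22 libraries, 1 point each. Splenic B (5.27 TPM) sits with the brain regions, basophils and skin to the right, and the 6 activated cultures, CH12 and T libraries sit at 1.21 TPM or less on the left.

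Cd180 and Ly86 were also below splenic B in all 6 cultures. Cd180 was at 421 TPM in splenic B, 257 in aBCD180, 176 in LPS+a-d-dextran, 159 in both LPS and aCD40+IL4, 129 in LPS+IL21 and 91.0 in LPS+IL4. It met the rule in 5 cultures and missed it in aBCD180, which was 1.64-fold below splenic B (1.61 to 1.67). Ly86 was at 480.1 TPM in splenic B, 453 in LPS+IL21, 315 in LPS, 263 in LPS+IL4, 256 in aBCD180, 232 in aCD40+IL4 and 158 in LPS+a-d-dextran, meeting the rule in the last 2 of these. The partners changed unequally: Ly86 per Cd180 was 1.14 in splenic B, 3.50 in LPS+IL21, 2.89 in LPS+IL4 and 0.90 in LPS+a-d-dextran. The fitted differences were -1.11 ± 0.42 for Cd180 (adjusted p = 0.176) and -0.49 ± 0.50 for Ly86 (adjusted p = 0.572).

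The nucleic acid receptors ranked the cultures in different orders. Tlr7 was at 62.4 TPM in splenic B, 49.8 in aCD40+IL4, 40.6 in LPS+IL4, 31.5 in LPS+IL21, 20.8 in LPS, 12.98 in LPS+a-d-dextran and 8.46 in aBCD180. Tlr9 was at 121 TPM in splenic B, 92.7 in aCD40+IL4, 79.3 in LPS, 65.8 in LPS+IL21, 63.9 in aBCD180, 44.2 in LPS+a-d-dextran and 22.6 in LPS+IL4. The lowest culture was aBCD180 for Tlr7 (7.38-fold below splenic B, 6.85 to 7.95) and LPS+IL4 for Tlr9 (5.35-fold, 5.16 to 5.54). Tlr9 per Tlr7 was thus 1.94 in splenic B, 0.56 in LPS+IL4 and 7.56 in aBCD180. Tlr7 is X-linked, and the level of the Y-linked Ddx3y differed between splenic B and LPS+IL21 on the one side and the other 5 cultures on the other. The part of sex in the Tlr7 values was not tested.

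Unc93b1 was at 740.3 TPM in splenic B, 585 in LPS+IL21, 549 in LPS, 504 in aCD40+IL4, 385 in aBCD180, 327 in LPS+IL4 and 229 in LPS+a-d-dextran. It met the rule in the last 2. Tlr2 was at 13.1 TPM in splenic B, 11.7 in LPS, 9.20 in aBCD180, 7.90 in LPS+IL21, 5.20 in LPS+a-d-dextran, 4.82 in LPS+IL4 and 3.07 in aCD40+IL4, and met the rule in the last 3. Both cultures with IL4 were thus the lowest for Tlr2. The LPS+a-d-dextran culture was the lowest of the 6 for Tlr4, Ly86, Myd88 and Unc93b1.

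Myd88 set one culture apart. It was at 164 TPM in LPS+IL21, and at 66.4 in aCD40+IL4, 55.9 in aBCD180, 53.7 in splenic B, 50.6 in LPS, 48.4 in LPS+IL4 and 44.6 in LPS+a-d-dextran. LPS+IL21 was 3.24 times the LPS culture (counting interval 3.06 to 3.43), with 6103 counts behind it, and has no second library. The other 6 values lay between 44.6 and 66.4 TPM. The order of Myd88 in LPS+IL4 and splenic B turned with the scaling, since on TMM-scaled counts LPS+IL4 was 0.12 (log2) above splenic B.

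**Figure D4:**
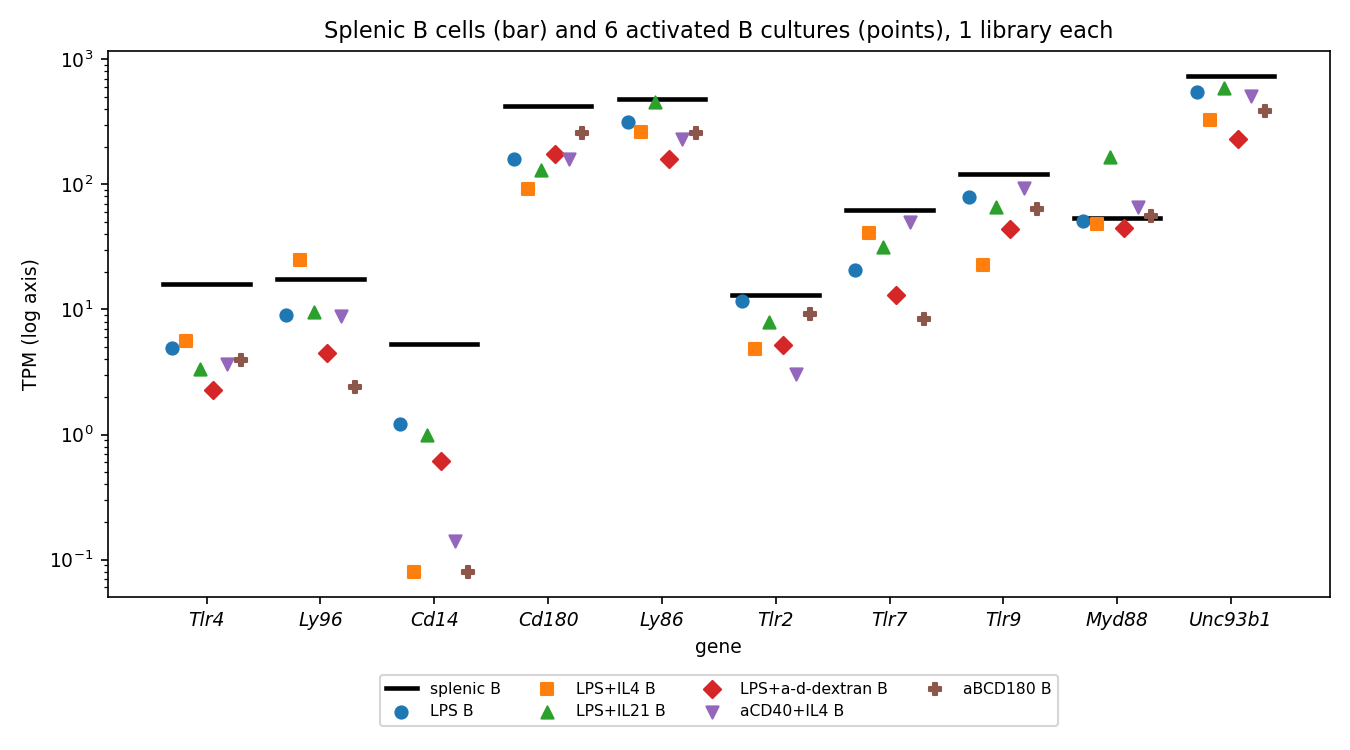
Level of each gene in splenic B cells (black bar) and in the 6 activated cultures (coloured points), in TPM on a log axis, 1 library each. All points lie below the bar for 8 genes, and above it lie Ly96 in LPS+IL4 (24.9 TPM) and Myd88 in LPS+IL21 (164 TPM), aCD40+IL4 (66.4) and aBCD180 (55.9).

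Of the other pathway lists, the fitted test called 1 gene, Tlr11 of the 8 other Toll-like receptors, at 3.91 TPM in splenic B and at 0 to 0.04 TPM in the cultures. By the rule of size many more genes of these lists differed, with the same shares of all genes as background. Of the 8 other Toll-like receptors, 2 to 4 were lower in each culture and 0 were higher. Tlr1 and Tlr3, chosen after their values were seen, were lower in all 6 cultures. Tlr1, which pairs with TLR2, was at 276 TPM in splenic B and 34.2 to 103.2 in the cultures, and Tlr3, a receptor for double-stranded RNA, was at 11.9 against 0.05 to 0.94. Of 20 adaptors and kinases, 2 (LPS) to 9 (aBCD180) were lower and 0 to 2 higher. Of 14 genes listed as brakes, 2 to 6 were lower and 0 to 2 higher. Of 12 transcription factors, 1 to 4 were lower and 0 to 3 higher, and of 8 delivery and chaperone genes 1 to 4 were lower and 1 to 3 higher. The LPS response genes were the list with more higher than lower members in every culture, 4 (aCD40+IL4) to 11 (LPS+IL21) of 20 against 1 to 4.

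The aBCD180 culture was then set against the 4 cultures with LPS, since its label contains the name CD180 and theirs names the ligand of TLR4. What aBCD180 stands for is not given. By the rule of size against every one of the 4, 0 of the 10 genes differed, where 0.889% of 9783 genes were higher and 0.388% lower. Cd180 was higher in aBCD180 (257 TPM) than in each LPS culture (91.0 to 176), but the step from LPS+a-d-dextran was under the threshold. Against LPS alone Cd180 was 1.62-fold higher (1.56 to 1.67). Ly96 (2.40 against 4.50 to 24.9 TPM) and Tlr7 (8.46 against 12.98 to 40.6) were lower than in each LPS culture, and both met the rule once LPS+a-d-dextran was left out. Ly86 per Ly96 reached 107 in aBCD180, where the LPS cultures had 10.6 to 47.9. Tlr4 (3.91 TPM) and Myd88 (55.9 TPM) lay inside the range of the LPS cultures.

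Among the T cells, the sorted populations (Tfh, non-Tfh and Tfr) were compared with CD4+ T cells, 6 libraries against 2. Of 9 genes tested 3 were higher and 0 lower, where 13.4% of 13064 genes were higher and 11.4% lower, 24.8% in all. All 3 lie outside the CD180 pair: Tlr4, Ly96 and Unc93b1.

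Ly96 was at 0.92 TPM in CD4+ T and 1.05 in CD4+ T MUT, from 21 and 14 counts. It was at 15.8 in Tfh, 14.0 in Tfh MUT, 10.4 in Tfr, 10.2 in Tfr MUT, 4.89 in non-Tfh MUT and 6.59 in non-Tfh. All 6 sorted libraries were above both CD4+ T libraries, and the log2 difference was 3.04 ± 0.36 (adjusted p = 0.00339). Tlr4 was at 0.04 and 0.06 TPM in the CD4+ T libraries, from 13 and 12 counts, and at 0.26 to 1.37 in the sorted ones, a difference of 3.64 ± 0.45 (adjusted p = 0.00385). Its level in T cells stayed under the 2.27 TPM of the lowest B library.

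Unc93b1 was at 10.6 and 12.1 TPM in the CD4+ T libraries and at 76.2 in Tfh MUT, 69.2 in Tfr, 52.6 in Tfh, 52.5 in Tfr MUT, 27.4 in non-Tfh MUT and 35.7 in non-Tfh. It differed by 1.89 ± 0.22 (adjusted p = 0.00304), with no overlap. All 3 calls needed the unmarked CD4+ T library: without it 0 of the genes passed, with Ly96 at 2.85, Tlr4 at 3.06 and Unc93b1 at 1.77. Without the Tfh library the log2 differences of Cd180, Ly86 and Tlr9 were 1.41, 1.37 and 1.45. Without Tfh MUT and Tfr together that of Tlr7 was -0.41. The number of all genes called also moved widely with the libraries left out, so changes in calls are not particular to these genes.

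B-cell transcripts varied across the same libraries. The summed B-cell markers of these 8 were lowest in CD4+ T (104 TPM) and highest in Tfr (576 TPM) and Tfh MUT (805 TPM). In Tfh MUT, Cd180 was 8.60 times, Ly86 7.93 times and Tlr9 7.56 times its level in CD4+ T, where the B-cell genes Cd79a and Ms4a1 were 6.81 and 8.29 times theirs. Across the 8 sorted and CD4+ libraries the correlation with the B-cell marker sum was 0.999 for Tlr9, 0.996 for Ly86 and 0.988 for Cd180. It was 0.777 for Unc93b1, 0.753 for Tlr4, 0.687 for Tlr7, 0.658 for Ly96 and -0.45 for Myd88. These Pearson correlations are descriptions over libraries in which Tfh MUT and Tfr stand apart. Without those, they were 0.980 for Tlr9, 0.948 for Ly86 and 0.845 for Cd180. They were also 0.971 for Tlr4, 0.933 for Ly96 and 0.886 for Unc93b1 over those 6 libraries, so these genes too were higher where the marker sum was higher. The part of B-cell RNA in the T-cell values was not tested.

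In non-Tfh and ConA the sizes of the changes differed between the genes. In non-Tfh the marker sum was 1.22 times that of CD4+ T, and Cd180, Ly86 and Tlr9 were 1.18, 1.10 and 1.09 times theirs. There Tlr4 was 11.2 times (6.26 to 20.2), Ly96 7.16 times (4.44 to 11.6) and Unc93b1 3.37 times (3.12 to 3.64) its CD4+ T level. In the ConA culture the marker sum was 6.03 TPM, and Cd180, Ly86 and Tlr9 were at 0.09, 0.17 and 0.21 TPM. Ly96 was at 7.08 TPM there, 7.70 times CD4+ T (4.95 to 11.96), Tlr4 at 0.61 and Unc93b1 at 20.6, 1.94 times CD4+ T (1.81 to 2.08). ConA was not part of the fitted comparison.

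**Figure D5:**
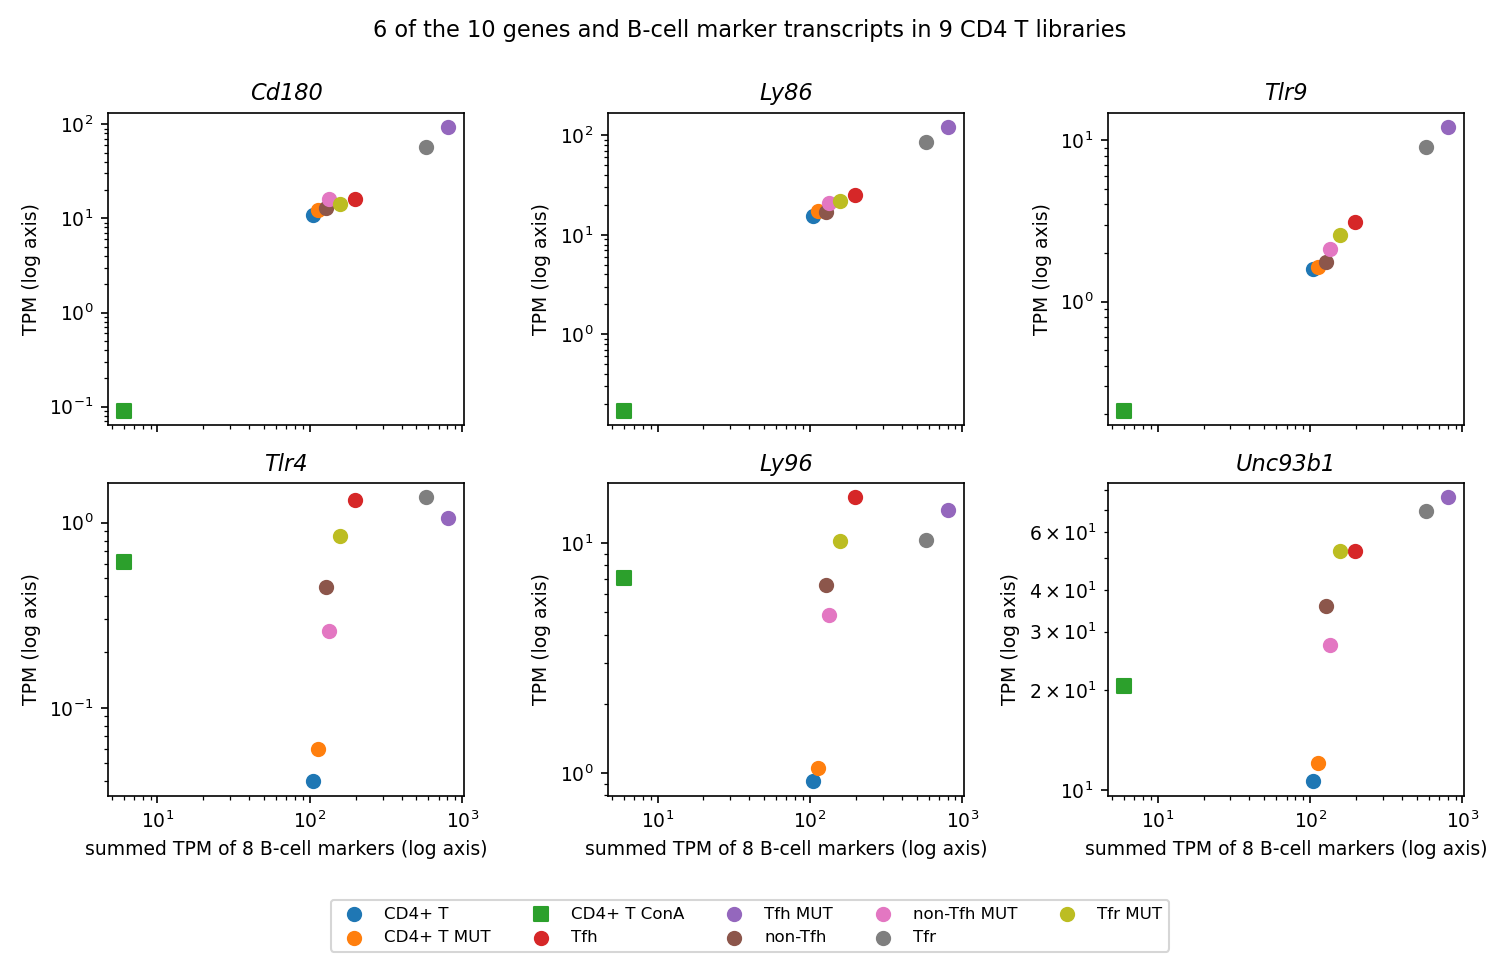
Level of 6 genes (vertical log axes, TPM) against the summed TPM of 8 B-cell markers (horizontal log axis) in the 9 CD4 T libraries, with the ConA culture as a square. Cd180, Ly86 and Tlr9 rise with the marker sum from ConA to Tfh MUT, while Ly96 is at 7.08 TPM in ConA, where the marker sum is 6.03.

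The other T-cell results were flat or mixed. Myd88 was at 82.0 to 105.3 TPM in the sorted and 87.4 and 94.4 in the CD4+ T libraries (-0.17 ± 0.12, adjusted p = 0.331), and at 33.6 in ConA. Tlr7 (-0.18 ± 0.26, adjusted p = 0.642) and Tlr2 (0.35 ± 0.31, adjusted p = 0.446) did not pass. Cd180 (1.12 ± 0.75, adjusted p = 0.315), Ly86 (1.11 ± 0.70, adjusted p = 0.293) and Tlr9 (1.19 ± 0.65, adjusted p = 0.232) did not pass either. For Cd180 and Tlr9 all sorted libraries were above both CD4+ T libraries, and so was their summed TPM of B-cell markers. The share of all genes in that order was not counted.

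The other pathway lists were read beside the shares of all genes tested, 13.4% higher and 11.4% lower. Of 19 tested LPS response genes, 14 were higher and 1 lower in the sorted populations. The chemokines Ccl4 (4.68 ± 0.47) and Ccl3 (4.28 ± 0.44) and the cytokine Il10 (2.92 ± 0.34) led the higher genes. Ccr7 was the lower one (-2.34 ± 0.15). These genes are also induced in T cells by their own receptors. Irf5 (1.57 ± 0.41), Irf8 (1.5 ± 0.15) and Rel (0.49 ± 0.14) were the 3 higher of 12 transcription factors, and 0 were lower. In the delivery list Slc15a3 (1.61 ± 0.30) and Hsp90b1 (0.50 ± 0.13) were higher and Lbp lower (-3.13 ± 0.33). Among adaptors and kinases the TLR4 sorting adaptor Ticam2 was higher (1.65 ± 0.32) and Ikbke (-0.77 ± 0.20) and Ikbkb (-0.53 ± 0.14) lower. Of the genes listed as brakes, Nfkbid was higher (0.47 ± 0.13) and Irak3 (-1.28 ± 0.34) and Peli1 (-0.69 ± 0.15) lower. Tlr12 was the single other Toll-like receptor called, and it was lower (-1.68 ± 0.22).

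The MUT label was tested across the same 8 libraries (4 against 4), with population as a term, so that each MUT library was set against the unmarked library of its own population. edgeR called 0 of 9 genes and 0 of 13064 in all (0.0%), with 192 genes at an unadjusted p under 0.05. DESeq2 called 2 genes and limma 0, none of them among the 9. Tlr7 alone of the 9 had an unadjusted p under 0.05 (0.0474, adjusted p = 1.00). It was higher in the MUT library by 0.58 ± 0.23, at 6.70 against 5.55 TPM in CD4+ T, 12.2 against 4.77 in Tfh and 3.82 against 2.24 in non-Tfh, but at 10.46 against 11.7 in Tfr.

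Basophils, brain, skin and the CH12 line were read by the rule of size against every lymphocyte library (CH12 against the 7 primary B libraries). Basophils met it for 0 of the 10 genes, where 6.72% of 11454 genes were higher and 3.26% lower. They had the TLR4 pair without much of the CD180 pair: Tlr4 was at 7.14 TPM and Ly96 at 14.2, against 4.30 for Cd180 and 1.60 for Ly86. Cd180 per Tlr4 was 0.60 and Ly86 per Ly96 was 0.11. Compared with splenic B, Cd180 was 97.9-fold lower, while Tlr2 (20.2 TPM) was 1.54 times (1.44 to 1.66) and Myd88 (130.2 TPM) 2.42 times as high (2.33 to 2.52). The basophil library also held Lyz2 at 1366, S100a8 at 1172 and Ly6g at 838 TPM, with neutrophil markers summing to 3312 TPM and 7 of 8 above 1 TPM. Its monocyte and macrophage markers summed to 1966 TPM, with 7 of 10 above 1 TPM. The part of such other cells in its Tlr4, Ly96, Tlr2, Cd14 and Myd88 levels was not tested.

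In the brain regions the pattern was led by Ly86. It was at 26.4 TPM in putamen, 20.8 in sensorimotor cortex and 19.98 in medulla oblongata, while Cd180 was at 1.36, 0.60 and 1.26. Cd14 was at 6.99, 6.34 and 7.24 TPM, above all 16 lymphocyte libraries, the highest of which was splenic B at 5.27. Myd88, at 5.08, 7.31 and 6.75 TPM, was the 1 gene that met the rule (5.48% of 13908 genes were lower and 18.2% higher), against 33.6 TPM or more in lymphocytes. All 8 microglia markers were above 1 TPM in the 3 regions, with sums of 310 to 427 TPM. The part of microglia in these levels was not tested.

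Back skin met the rule for 0 genes (16.5% of 12790 genes were higher and 8.05% lower). It had the highest Cd14 of all 22 libraries, 10.7 TPM (9.70 to 11.7), with Ly86 also at 10.7 and Cd180 at 0.90. All 10 monocyte and macrophage markers were above 1 TPM there, summing to 816 TPM. With a pseudocount of 0.1, or on TMM-scaled counts, Cd14 met the rule in skin. Without the splenic B library, Cd14 met the rule in basophils, skin and brain. Without ConA, Cd180 met it as lower in all 3 and Ly86 in basophils.

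CH12 kept most of the B-cell pattern, with Cd180 at 294 TPM, Ly86 at 337 and Tlr4 at 5.37, inside the range of the primary B libraries. Tlr2 was the 1 gene that met the rule, at 27.3 TPM against 3.07 to 13.1 (6.16% of 10625 genes were higher and 2.43% lower). On TMM-scaled counts it missed the rule. Myd88 (32.8 TPM) was below every primary B library (44.6 or more), Tlr9 (22.3 TPM) was level with the lowest of them (LPS+IL4, 22.6), and Cd14 was at 0 counts.

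Across all 22 libraries the genes most like each of the 10 were listed among 13503 candidates, by Pearson correlation of log2(TPM + 1). These correlations mostly reflect which lineage a library is and carry no test. Cd180 was closest to Spib (0.978), Cd79a (0.975) and Ms4a1 (0.964), and Tlr9 to Pax5 (0.982), Rubcnl (0.980) and Kmo (0.980). Rasgrp3 (0.943) and Blnk (0.938) were among the closest to Ly86. Unc93b1 was closest to Pik3ap1 (0.977), Tlr9 (0.958) and Plcg2 (0.949), the only case of one of the 10 ranking in the top 3 of another. Tlr7 was closest to H2-Eb2 (0.945), Noxred1 (0.935) and Ciita (0.931). Lyn (0.863) and Hhex (0.859) were among the closest to Tlr4. Ly96 was closest to Pmaip1 (0.846), Slc35b2 (0.830) and Casp1 (0.829), and Tlr2 to Nxpe2 (0.867), Baz2b (0.862) and Spns3 (0.856). Rnd3 (0.951) and Rab3il1 (0.949) were among the closest to Cd14. Myd88 was closest to Shc1 (0.967), Tapbp (0.956) and Sbno2 (0.954).

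Among the 10 themselves, partners were not always each other's closest. Over the 22 libraries Cd180 and Ly86 correlated at 0.89, Cd180 and Tlr9 at 0.93, Tlr9 and Unc93b1 at 0.96, and Tlr4 and Ly96 at 0.57. Within the 7 primary B libraries, where lineage does not vary, Ly96 went most closely with Tlr7 (0.86) and Ly86 with Unc93b1 (0.88), and the values were 0.29 for Cd180 with Ly86 and 0.60 for Tlr4 with Ly96.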

How the data were processed

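Poly(A) RNA of 22 mouse libraries was measured with 50 sequencing cycles. Per the file headers, the deposited tables hold an expected count (estimated reads per gene, not normalized) and a TPM, which the authors scaled per length and library, in the layout of RSEM. CASAVA 1.8.2, STAR, RSEM and bedtools with the mm10 genome are named in the submitters' processing notes, with no order or settings. FPKM were not used. Of 24911 genes 20163 had a count in some library, and 86.1% of counts above 0 were whole (within 1e-09). Expected counts were rounded before they were fitted with edgeR (version 4.0.16, under R 4.3.3) by its quasi-likelihood test, after its default filter on low counts and TMM scaling, with p-values adjusted by Benjamini-Hochberg across every tested gene and 0.05 as the threshold. DESeq2 1.42.0 and limma 3.58.1 on log2(TPM + 1) were alternatives. Single-library comparisons used a rule of size, and intervals are 95% Poisson intervals that cover counting error only. On simulated counts the test recovered 42.7% of 2-fold and 78.7% of 4-fold changes between B and T cells, and 1.3% and 10.7% between the cultures and splenic B.

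The 10 genes and the pathway and marker lists were chosen with earlier results of these data known. Of each other list, at most the 3 genes with the largest called change per direction are named, and for each of the 10 genes the 3 with the most similar profile among genes with at least 10 TPM in 1 library. Some genes that this rule names are not reported here. Promoter windows came from RefSeq (GRCm38.p6). Windows of 5 of the 10 genes were used, Cd14 was left out of that search, and no protein sequence was used. The window of Tlr2 is not shown. The files' libraries carry no replicate beyond 1 per group. Alternatives covered scaling, filters, tools, pseudocount, thresholds and leaving out libraries: each in turn for the fitted comparisons, each LPS culture for aBCD180, and ConA and splenic B for basophils, skin, CH12 and brain. The T-cell fits had population and MUT label as terms.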

Additional observations from a re-analysis of the deposited data

Results flagged for a closer look

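One value stood apart from its group by Dixon's criterion at the 95% level. Among the 6 activated B cultures, Myd88 was at 164.11 TPM in LPS+IL21, far above the other 5, which ran from 44.6 to 66.4 TPM. The gap between it and the next culture was most of the whole range. Of 20 sets of values checked, this was the 1 with an end past the criterion, and chance alone gives about 1 in 20. The culture has no second library, so the difference has no replicate check.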

How the results depend on the processing

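The labels give no replicate numbers, so no fit with such a number as a block was made, and the MUT comparison was already paired by population. For B against CD4 T cells the number of genes called stayed between 5038 and 6648, and of the 10 genes between 6 and 7, when each library was left out. Ly96 turned to -0.012 without the libraries with the length offset of 49. For the activated cultures against splenic B, the count of 76 became 1808 with DESeq2, 809 with limma, 14 with the 4 LPS cultures only, 0 with LPS+IL4 alone and 3 to 424 with each culture left out. Of the 10 genes, DESeq2 and limma each called 1. Ly96 turned to 0.86 with LPS+IL4 alone. For sorted against CD4+ T cells, the count of 3242 ran from 557 to 5325 with each library left out and was 6633 without Tfh MUT and Tfr, and of the 10 genes 0 to 6 were called. Tlr7 turned to 0.071 and Myd88 to 0.060 with limma, and with each library left out Tlr7 ran from -0.351 to 0.030. For the MUT label, the count of 0 became 2 with DESeq2, 478 without Tfh MUT and Tfr, and 0 to 29 with each library left out. With each library left out, the MUT differences ran, on the log2 scale, for Ly96 from -0.19 to 0.043, for Cd180 from -0.45 to 0.95, for Ly86 from -0.43 to 0.88, for Tlr2 from -0.29 to 0.15, for Tlr9 from -0.46 to 0.73, for Myd88 from -0.040 to 0.14 and for Unc93b1 from -0.15 to 0.17. Unc93b1 turned to -0.016 with limma and -0.12 without Tfh MUT and Tfr, and Tlr2 to -0.24. The 32 pairs against splenic B became 9 at a difference of at least 2. For aBCD180 against the LPS cultures the count of 0 ran from 0 to 2. For basophils, skin, CH12 and brain the 2 became 1 at a difference of at least 2, and 5 to 6 without ConA or splenic B. The causes were not tested. Alternatives on length offset, and on Tfh MUT and Tfr, were chosen after seeing the data. Depth limits Cd14 in the cultures (3 to 32 counts) and Tlr4 in CD4+ T cells (12 and 13 counts).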
